A study of Mus musculus with 6 samples.

Results

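The heat shock proteins and J-domain (DNAJ) co-chaperones of the mouse ovary were followed here as 1 gene family. Members were taken by gene symbol: the HSP90, HSP70, HSP110, HSP60, HSP10 and small heat shock protein symbols, the Dnaja, Dnajb and Dnajc symbols, and the heat shock factors Hsf1 and Hsf2. Of the 72 such genes among the 18280 genes of the deposited table, 69 reached the required sum of 60 estimated read counts over the 6 libraries, and all 69 entered the test. Dnajb7, Dnajc22 and Hspb9 did not, with sums of 3, 10 and 19 counts. The members nearest inside the threshold were Dnajb3 with 186 counts, Hspa1l with 263 and Hspb2 with 318. The rule uses no expression difference between the genotypes.

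Each library held total RNA of the ovary of a single animal, with 3 animals of the genotype Dennd1aTG (TG), which carry a Dennd1a transgene, and 3 of the wild type (WT). All 6 animals had been given PMSG, a gonadotropin that drives follicle growth, 44 h before collection, so no group is free of hormone. Dennd1a encodes an activator of RAB35 that acts in clathrin-mediated endocytosis, and the design text places the comparison in the setting of reduced FSH response and low fertility. The labels used here give neither the strain, the age, the founder line nor the promoter behind the transgene. Libraries held 17075484 to 17763323 estimated counts in TG and 17106719 to 18516171 in WT. Dennd1a itself had 570.2, 582 and 588 CPM (counts scaled to library size) in TG ovaries, against 44.6, 39.5 and 49.3 CPM in WT ovaries, so the libraries carried the genotypes of their labels; reads of the transgene and of the endogenous gene are counted together.

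Chaperones bind unfolded proteins and use cycles of ATP binding and hydrolysis to let them fold. HSP70 proteins start most of these reactions, J-domain proteins bring them their clients and trigger ATP hydrolysis, HSP110 proteins exchange the nucleotide, HSP90 proteins mature clients such as steroid hormone receptors and kinases, and small heat shock proteins hold unfolded proteins without ATP. Under heat or protein damage the factor HSF1 binds heat shock elements, inverted repeats of GAA and TTC units, and raises the inducible members, while unfolded proteins in the endoplasmic reticulum (ER) raise a separate set. In the ovary these genes serve follicle cells that secrete, divide and respond to steroids.

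Stretches upstream of an annotated start that hold the letters of a heat shock element are printed for members described below, to show what such a match looks like. They come from the RefSeq promoter table of GRCm38.p6, in which 56 of the 69 members have 1 or more windows; the 250 bases before each annotated start were searched on both strands. A pair of heat shock units, GAANNTTC or TTCNNGAA, lay in the windows of 13 members (Dnaja1, Dnaja4, Dnajb4, Dnajb6, Dnajc10, Dnajc27, Hspa1a, Hspa1b, Hspb1, Hspb6, Hspd1, Hspe1 and Hsph1). These letters are common: they lay in 15 of the 73 member windows (20.5%) and in 12.8% of all 32851 windows of the same length, and the forms can overlap each other. Hspa8, Hsp90aa1 and Dnajb1, which are known to respond to heat, were not among these 13 with a match. Another 13 members had no window and were not searched, so absence from the list need not mean a searched window without a match. A match describes letters and was not tested as a binding site.

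The first 3 windows are whole, 250 bases 5′ to 3′ on the strand of the gene and ending 1 base before its start, with the pairs of heat shock units in capitals. Hspa1a (chr17:34972157-34972406, minus strand) and Hspb1 (chr5:135887669-135887918, plus strand) are the inducible HSP70 and the most abundant small heat shock protein. Hspa1b (chr17:34959239-34959488, minus strand) is shown beside its copy Hspa1a because the windows share 247 of 250 bases.
Hspa1a: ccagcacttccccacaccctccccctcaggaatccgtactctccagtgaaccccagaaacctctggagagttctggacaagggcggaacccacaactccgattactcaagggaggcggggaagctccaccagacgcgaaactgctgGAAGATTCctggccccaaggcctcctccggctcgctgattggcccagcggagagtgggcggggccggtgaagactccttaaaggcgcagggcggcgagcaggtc
Hspa1b: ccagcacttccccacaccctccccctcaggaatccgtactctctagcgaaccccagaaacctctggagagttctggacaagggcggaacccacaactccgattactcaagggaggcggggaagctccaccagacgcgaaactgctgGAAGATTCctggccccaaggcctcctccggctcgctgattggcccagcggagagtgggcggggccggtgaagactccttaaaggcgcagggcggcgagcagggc
Hspb1: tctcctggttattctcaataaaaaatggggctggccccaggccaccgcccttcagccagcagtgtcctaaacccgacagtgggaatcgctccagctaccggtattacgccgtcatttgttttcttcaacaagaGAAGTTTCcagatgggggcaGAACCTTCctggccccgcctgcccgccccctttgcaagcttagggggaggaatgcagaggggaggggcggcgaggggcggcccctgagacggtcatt

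The next 4 are stretches of 30 bases around a heat shock match, again in capitals. Hspe1 (chr1:55088053-55088082, plus strand) and Hspd1 (the same bases, minus strand) are neighbouring genes with opposed starts, and both hold the same run of overlapping pairs. Hsph1 (chr5:149636351-149636380, minus strand) and Dnajb4 (chr3:152193846-152193875, minus strand) carry a single pair. Several of these stretches are transcribed in some annotated form: exons cover all 30 bases printed for Hspe1 and Hspd1 and 26 of the 30 for Hsph1. Those of Hspd1, Hsph1 and Dnajb4 lie within the annotated span of the gene; Hspd1, Hsph1 and Dnajb4 have 2 windows each.
Hspe1: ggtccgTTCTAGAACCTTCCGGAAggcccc
Hspd1: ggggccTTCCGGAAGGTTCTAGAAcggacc
Hsph1: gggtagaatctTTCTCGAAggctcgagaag
Dnajb4: gttcgttcgttcgctgTTCTAGAAagtaca

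By level per transcript length (FPKM), the ovary carried a few very abundant chaperones and a long tail. The 5 most abundant members made up 64.5% of the summed FPKM of the 69 and the top 10 made up 80.7%, while the median member had a mean of 28.3 FPKM and 17 members lay under 10. Hspa8, the constitutive cytosolic HSP70 (gene 15481), led with 2171 ± 125 FPKM in TG and 2213 ± 142 FPKM in WT (SD, n = 3 each). Hsp90ab1, the constitutive cytosolic HSP90 (gene 15516), followed with 1234 ± 65.6 FPKM in TG and 1253 ± 41.4 FPKM in WT. Both stood apart from the next in all 6 libraries. Below them came Hsp90b1, the HSP90 of the ER, then the mitochondrial chaperonin Hspd1 (HSP60), the ER HSP70 Hspa5 (BiP) and Hspe1 (HSP10), with means over all libraries of 582, 568, 527 and 447 FPKM. Neighbours among these 4 did not differ beyond their spread over libraries. Dnajc15, a J-domain protein of the inner mitochondrial membrane, had 296 FPKM and overlapped Hsp90aa1 at 263 FPKM, the inducible HSP90. Hspa9 (mitochondrial HSP70) followed at 162 FPKM, above Dnaja1 at 113 FPKM. The tail ended with Hspb7, Hspa1l and Dnajc6 at 1.29, 1.10 and 1.09 FPKM.

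**Figure D1:**
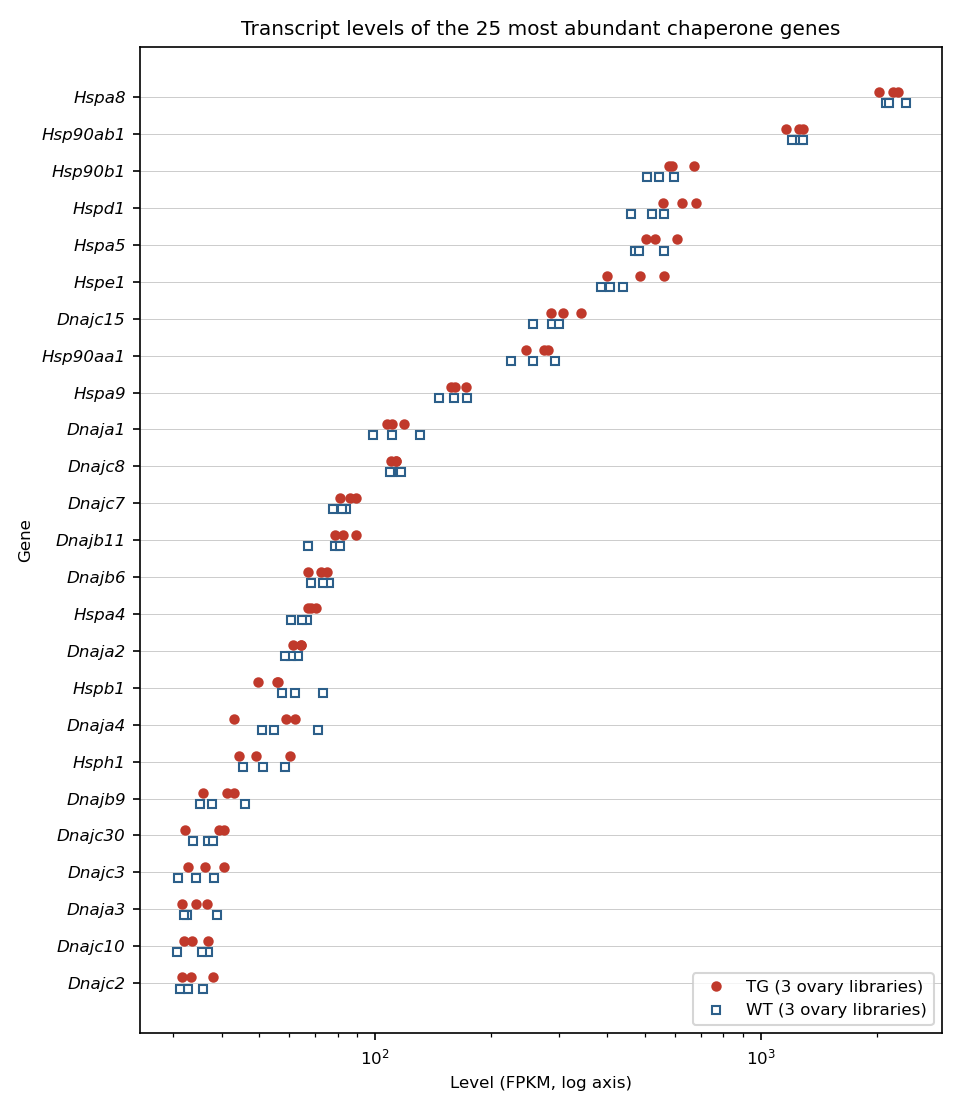
Levels in FPKM on a log axis of the 25 most abundant members, 1 point per ovary library, TG points above WT points in each row. Hspa8 and Hsp90ab1 stand apart at the top, and TG and WT points of most genes lie on each other.

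Constitutive forms outweighed inducible ones in both genotypes. On the FPKM scale Hsp90ab1 stood at 4.62 ± 0.127 times Hsp90aa1 in TG and 4.90 ± 0.526 times in WT (SD, n = 3 each). Hspa8 stood at 82.4 ± 3.81 times the sum of Hspa1a and Hspa1b in TG and 79.3 ± 11.3 times in WT. The groups overlapped in both ratios. The members together took 1.61% to 1.73% of all counts in TG libraries and 1.55% to 1.71% in WT libraries.

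Between the genotypes, none of the 69 members passed the test. With edgeR's quasi-likelihood test at a Benjamini-Hochberg adjusted p under 0.05, 0 members were called, beside 1.05% of the 14124 genes tested (5 genes, or 0.0354%, higher in TG and 144 genes, or 1.02%, lower), and the lowest adjusted p of a member was 0.9997. DESeq2 and limma-voom also called 0 members, beside 1.1% and 0.977% of the genes that each tested. An unadjusted p under 0.05 was reached by 2 members (2.9%) in each of the 3 tools, against a share of all genes of 4.08% (edgeR), 2.9% (DESeq2) and 4.1% (limma-voom); the edgeR pair was Hspb1 and Hspd1. The log2 fold changes of TG over WT ran from -0.30 (Hspb7) to 0.44 (Dnajb3), with 39 above 0, 30 below, and a median of 0.01, against 0.00 for all genes tested.

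A p over the threshold does not show equality, so the intervals bound what could have been missed. For 63 members the 95% interval of the fold change lay wholly within 1.5-fold in either direction, and for 67 within 2-fold. The 6 whose interval was wider were Dnajb3, Hspa1l, Hspb2, Hspb7, Dnajc6 and Dnajc12, all with means under 10 CPM. The median standard error of a member was 0.11 on the log2 scale. The spread over the 6 libraries, genotype ignored, was also narrow: the highest library exceeded the lowest by a median of 1.29 times, and only Hspb7 (2.53 times) and Dnajc6 (2.65 times) exceeded 2.

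**Figure D2:**
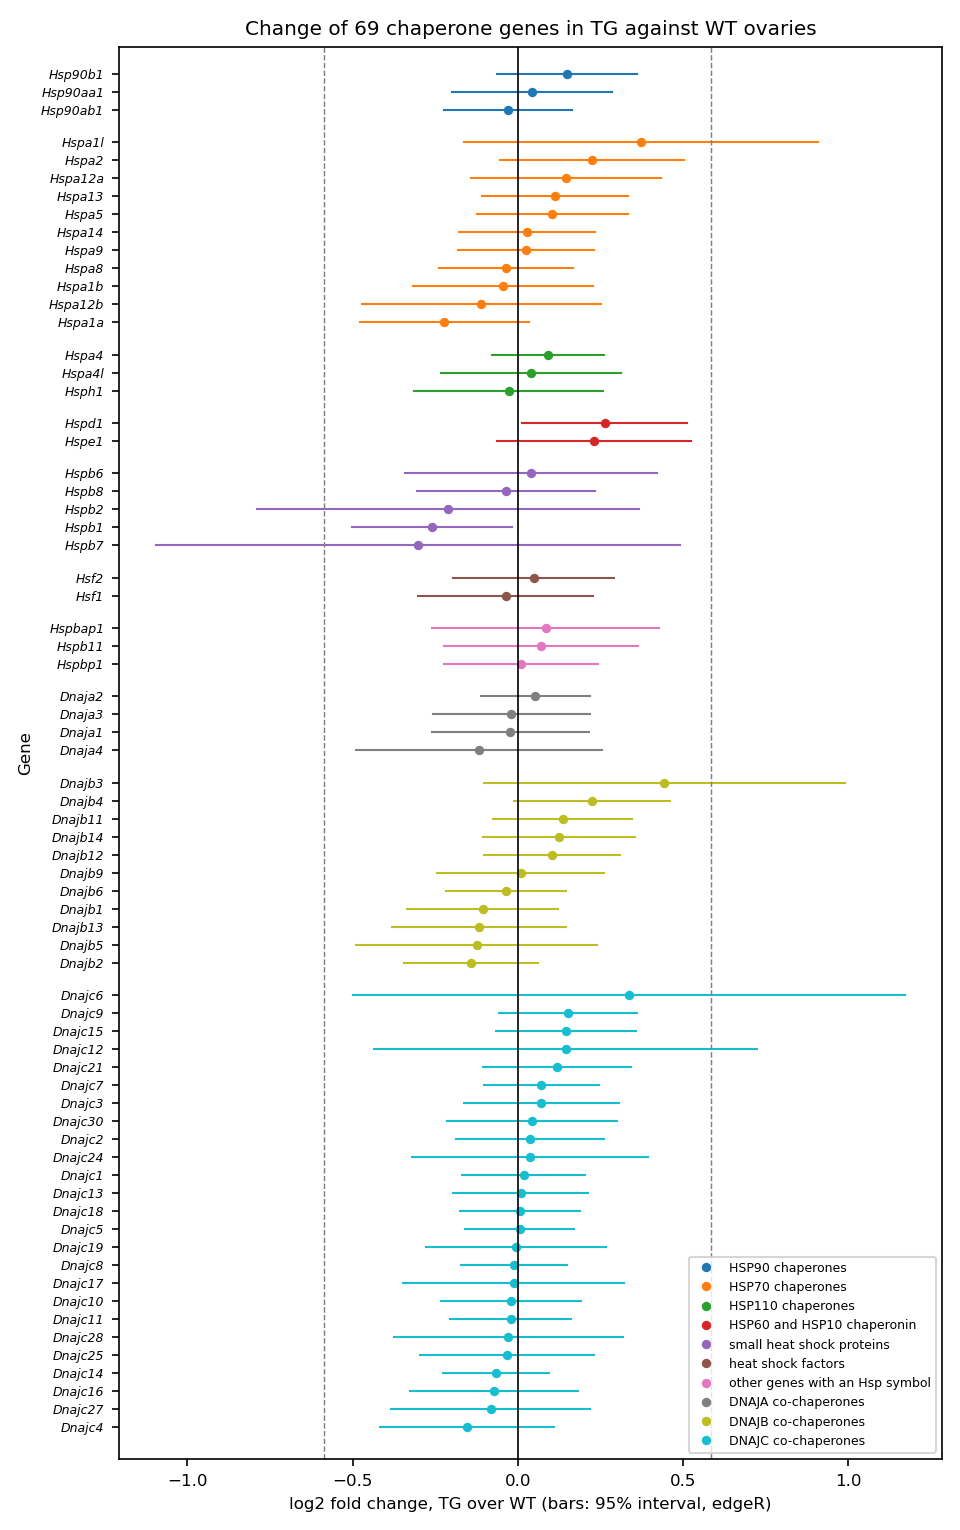
Log2 fold change of TG over WT for each of the 69 members, by class, with the 95% interval from edgeR; dashed lines mark 1.5-fold. Points cluster around 0, and the widest intervals belong to low genes such as Hspb7 and Dnajc6.

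**Figure D3:**
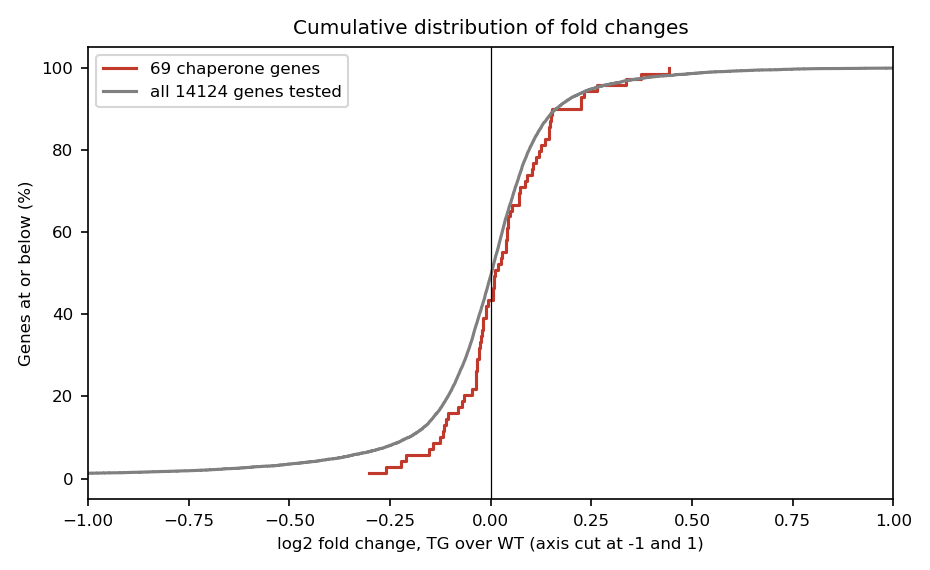
Cumulative share of genes, in percent, at or below each log2 fold change of TG over WT, for the 69 members and for all 14124 genes tested, with the axis shown between -1 and 1. Both curves cross the middle near 0, with medians of 0.01 for the members and 0.00 for all genes.

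In 7 members (10.1%) every TG library lay on the same side of every WT library, beside 8.27% of all genes. Hspa4, an HSP110 protein, Dnajb4 and Dnajb3 lay above (3 members, 4.35%, beside 3.22% of genes), and Hspb1, Dnajb2, Dnajb13 and Dnajc14 lay below (4 members, 5.8%, beside 5.05%). Hspa4, Dnajb13 and Dnajc14 were named after their values were seen. The shares were near those of all genes, and the differences were small: Hspa4 had 309.9, 308 and 298 CPM in TG and 297, 291 and 272 CPM in WT (log2 fold change 0.09). In Dnajc14, a J-domain protein of the ER membrane, it was -0.07, and in Dnajb13, a protein of sperm flagella, -0.12.

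Among the cytosolic chaperones the groups overlapped in the most abundant genes. Hspa8 had 4330.4, 4319 and 3919 CPM in TG, against 4571, 4128 and 4174 CPM in WT. The lowest library was TG and the highest WT, with overlap between, and the log2 fold change was -0.03 (95% interval -0.24 to 0.17). Hsp90ab1 had 2892, 3041 and 2704 CPM in TG and 2948, 3031 and 2835 CPM in WT (log2 fold change -0.03, 95% interval -0.22 to 0.16). Hsp90aa1 had 741, 744 and 659 CPM in TG and 782, 695 and 606 CPM in WT. WT replicates 1 and 3 were its highest and lowest libraries, and its log2 fold change was 0.04. The HSP110 exchange factor Hsph1 had 188, 155 and 140.2 CPM in TG and 185, 164 and 144 CPM in WT. Dnaja1, the J-protein partner of cytosolic HSP70, had 377, 359 and 345 CPM in TG and 419, 359.7 and 320.0 CPM in WT. Dnajb1, the inducible one, had 80.1, 92.0 and 73.4 CPM in TG and 94.5, 82.9 and 86.8 CPM in WT. Their log2 fold changes were -0.03, -0.02 and -0.11, with overlap of the groups in all 3. That of Dnajb1 was -0.0354 without TG replicate 3, -0.0563 without WT replicate 1 and -0.20 without TG replicate 2.

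The inducible HSP70 pair Hspa1a (gene 193740, chromosome 17, 34969359 to 34972156) and Hspa1b (gene 15511, chromosome 17, 34956429 to 34959238) is the classic readout of heat shock. Hspa1a had 24.2, 24.4 and 24.4 CPM in TG, against 30.2, 24.0 and 30.9 CPM in WT, so the TG libraries were almost equal while WT replicates 1 and 3 stood above them and WT replicate 2 just below. Its log2 fold change was -0.22 (95% interval -0.48 to 0.03, unadjusted p 0.0808 in edgeR). Hspa1b had 44.0, 47.7 and 43.1 CPM in TG and 47.8, 38.3 and 53.1 CPM in WT (log2 fold change -0.05), with WT libraries on both sides of TG.

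Reads of these copies are hard to split: both had counts that were not whole numbers in all 6 libraries, as had Dnajb6, Dnajb14 and Dnajc14, while 59 members had whole counts throughout. Their levels are therefore uncertain one by one. Summed as 1 gene, an alternative chosen after seeing the data, they had 68.2, 72.1 and 67.5 CPM in TG and 78.1, 62.3 and 84.0 CPM in WT. The TG libraries lay inside the WT range, and the log2 fold change of the sum was -0.11 (95% interval -0.36 to 0.14, unadjusted p 0.349). The FPKM ratio of Hspa1b to Hspa1a was 1.76 to 1.95 in TG and 1.57 to 1.71 in WT, without overlap, and it rests on how ambiguous reads were shared. Hspa1l, the testis-enriched gene of the same cluster, had 2.35, 3.16 and 2.86 CPM in TG and 2.43, 2.25 and 1.77 CPM in WT, with overlap. Of the 12 other tested genes within 100 kb of the cluster, 0 were called by edgeR. An unadjusted edgeR p under 0.05 was reached by 2 of the 12, beside 4.08% of all genes tested. The log2 fold changes of the 12 ran from -1.40 to 0.51, with a median of -0.09.

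Small heat shock proteins had 4 of 5 fold changes below 0, with a median of -0.21, and 0 of 5 were called. Hspb1 (HSP25 in mouse, gene 15507, chromosome 5, 135887919 to 135889563), which holds unfolded proteins and acts on the actin cytoskeleton, had 40.1, 36.9 and 41.1 CPM in TG, against 45.0, 42.4 and 54.1 CPM in WT. All TG libraries lay below all WT libraries, the nearest by little, and WT replicate 3 stood highest. Its log2 fold change of -0.26 (95% interval -0.50 to -0.02) had the lowest unadjusted edgeR p of the family, 0.0379, with an adjusted p of 0.9997. Without WT replicate 3 it was -0.15. Hspb8, which works with Bag3 in selective autophagy, had 52.5, 44.6 and 59.4 CPM in TG and 53.8, 48.1 and 58.5 CPM in WT (log2 fold change -0.04). Hspb8 was named after its values were seen.

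The 3 muscle-type small heat shock proteins, Hspb2, Hspb6 and Hspb7, all peaked in WT replicate 3. Hspb7, known from heart and other muscle, had 3.39, 2.41 and 3.21 CPM in TG and 2.37, 2.79 and 5.99 CPM in WT; its log2 fold change of -0.30 turned to 0.22 without WT replicate 3. Hspb2 had 3.27, 2.47 and 2.57 CPM in TG and 2.36, 3.23 and 4.03 CPM in WT, and its log2 fold change of -0.21 became -0.0137 without WT replicate 3. Hspb6 (HSP20, named after its values were seen) had 14.4, 14.6 and 17.1 CPM in TG and 14.4, 11.9 and 18.6 CPM in WT. The same library had the highest sum of 6 smooth muscle markers, with TG libraries at 1288 to 1532 CPM and WT libraries at 1199, 1323 and 2043 CPM, and the highest Des, at 126 CPM in WT replicate 3. The same library also held most of the oviduct marker Ovgp1, at 40.9 CPM, and the highest oocyte marker sum, at 230.4 CPM. In WT replicate 3 the macrophage, granulosa, lymphocyte and interferon-response marker sums were the highest too, at 515, 5476, 3.58 and 1779 CPM. The part of these markers in the chaperone values was not tested. In bulk ovary RNA, fewer cells of a type and less RNA per cell cannot be told apart.

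The genes of the mitochondrial chaperonin had fold changes above 0 and did not pass the test. Hspd1 (gene 15510, chromosome 1, 55077833 to 55088243), the HSP60 barrel that folds imported matrix proteins, had 1193, 1486 and 1349.8 CPM in TG, against 1129, 1226 and 1001 CPM in WT. TG replicate 1 lay below WT replicate 2, so the groups overlapped. Its log2 fold change was 0.26 (95% interval 0.01 to 0.51, unadjusted edgeR p 0.0407), and 0.11 without TG replicate 2 and WT replicate 3. Hspe1 (gene 15528, chromosome 1, 55088148 to 55091317), its lid, had 234, 341 and 291 CPM in TG and 228, 244 and 265 CPM in WT. TG replicate 2 stood highest in both genes, and TG replicate 1 lay inside the WT range of Hspe1. The log2 fold change of Hspe1 was 0.23 (95% interval -0.06 to 0.53), and 0.09 without TG replicate 2. TG replicate 2 also held the highest adipocyte marker sum, 185 CPM against 15.5 to 35.8 CPM in the other 5 libraries, with Cfd at 86.8 CPM; its part in these values was not tested.

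The other mitochondrial members were closer to level. Hspa9, which pulls proteins into the matrix, had 455, 501 and 451 CPM in TG and 458, 503 and 423 CPM in WT (log2 fold change 0.03). Dnajc15 had 144, 139 and 163 CPM in TG and 136, 123 and 144 CPM in WT (log2 fold change 0.15, 95% interval -0.07 to 0.36), at 0.0713 without TG replicate 3 and 0.0868 without WT replicate 2. Over the 8 mitochondrial members the log2 fold changes ran from -0.02 to 0.26 with a median of 0.03, and 0 were called. Their summed level was 1549, 1838 and 1748 FPKM in TG and 1483, 1535 and 1483 FPKM in WT, without overlap, and Hspd1 and Hspe1 made up most of it.

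**Figure D4:**
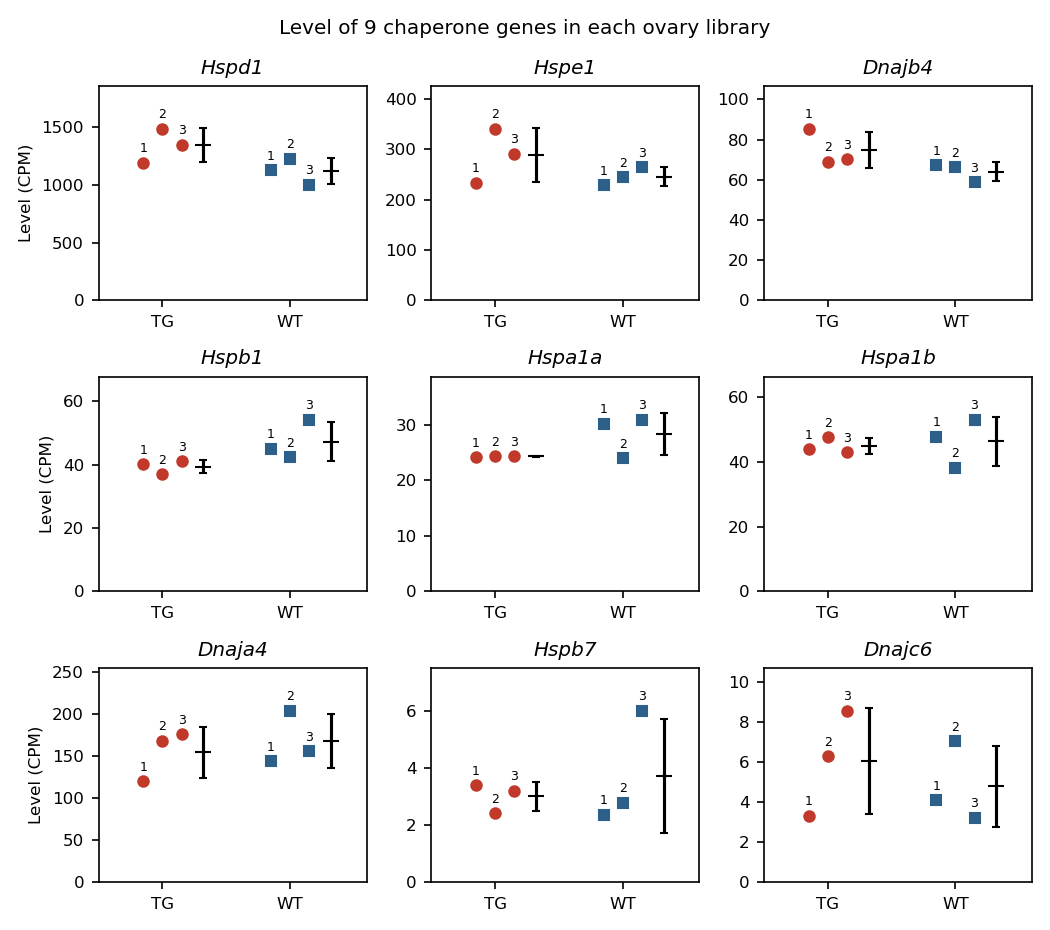
Level in CPM of 9 members, 1 point per ovary library with its replicate number, TG left of WT; bars show the mean and SD of 3 libraries. TG replicate 2 is the highest library for Hspd1 and Hspe1, WT replicate 3 for Hspb1 and Hspb7, and WT replicate 2 for Dnaja4.

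A list of 10 ER members held Hspa5, Hsp90b1, Hspa13, Dnajb9, Dnajb11, Dnajb12, Dnajb14, Dnajc1, Dnajc3 and Dnajc10. Of these, 9 had fold changes above 0, from -0.02 to 0.15 with a median of 0.10, and 0 were called. The list does not hold every member of the ER: Dnajc14 and Dnajc16, both at -0.07, are outside it. Dnajc16 was named after its values were seen. Hspa5 (BiP), the ER HSP70 and sensor of misfolding, had 1416, 1274 and 1189 CPM in TG, against 1329, 1129.7 and 1149 CPM in WT. Its log2 fold change was 0.10 (95% interval -0.12 to 0.33), and it ranged between 0.0343 without TG replicate 1 and 0.18 without WT replicate 1. Hsp90b1 (GRP94) had 1709.8, 1546 and 1493 CPM in TG and 1533, 1427 and 1324 CPM in WT (log2 fold change 0.15, 95% interval -0.06 to 0.36). In both genes replicate 1 of each genotype was the highest of its group, and the groups overlapped. Hsp90b1 was at 0.0902 without TG replicate 1 and 0.0975 without WT replicate 3. Dnajc3 (P58IPK), a luminal J-protein, had 201, 166 and 181 CPM in TG and 192, 174 and 156 CPM in WT. Dnajb9 (ERdj4), which brings BiP to the stress sensor IRE1, had 71.7, 61.5 and 69.8 CPM in TG and 77.6, 59.9 and 64.2 CPM in WT. Their log2 fold changes were 0.07 and 0.01. Without WT replicate 3, Dnajc3 was at -0.0020 and Dnajb9 at -0.0233, while Hspa5 stayed at 0.0730. The summed level of the 10 was 1560, 1377 and 1343 FPKM in TG and 1427, 1275 and 1221 FPKM in WT, with overlap.

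The heat shock factors did not pass the test. Hsf1, the master factor of the heat shock response, had 43.1, 51.5 and 50.8 CPM in TG and 45.5, 46.1 and 57.5 CPM in WT (log2 fold change -0.04, 95% interval -0.30 to 0.23). Hsf2, known for roles in germ cells and development, had 25.1, 29.8 and 25.1 CPM in TG and 27.5, 26.2 and 23.7 CPM in WT (log2 fold change 0.05). RNA level does not report HSF1 activity, which depends on trimer formation and entry into the nucleus. Over a list of 10 members known to respond to heat (Hspa1a, Hspa1b, Hsph1, Hsp90aa1, Hspb1, Hspd1, Hspe1, Dnaja1, Dnajb1 and Hspa8, which is mainly constitutive), 3 fold changes were above 0 and 7 below, with a median of -0.03, and 0 were called. Members with printed heat shock pairs did not share a sign. Hspb1 had -0.26, Hspa1a -0.22, Hspa1b -0.05 and Hsph1 -0.03, while Dnajb4 had 0.22, Hspe1 0.23 and Hspd1 0.26. The stretches printed for Hspe1 and Hspd1 are the same bases.

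Among the 40 J-domain members, the 4 Dnaja, 11 Dnajb and 25 Dnajc genes had medians of -0.02, 0.01 and 0.01, and 0 were called in each class. Dnajb4 had 85.4, 68.9 and 70.4 CPM in TG, against 67.3, 66.3 and 58.7 CPM in WT. All TG libraries lay above all WT libraries, by little between TG replicate 2 and WT replicate 1, and the log2 fold change was 0.22 (95% interval -0.01 to 0.46, unadjusted edgeR p 0.0605). Without TG replicate 1, its highest library, it was 0.12. Dnajb2, which brings clients to the proteasome, had 45.8, 44.1 and 46.0 CPM in TG and 47.6, 55.2 and 47.0 CPM in WT (log2 fold change -0.14, and -0.0642 without WT replicate 2). Dnajc9, a histone co-chaperone, had 43.0, 45.0 and 42.4 CPM in TG and 36.3, 43.2 and 37.9 CPM in WT (log2 fold change 0.15) with overlap at WT replicate 2. The lowest J-domain genes had the widest values. Dnajc6 (auxilin), which strips clathrin coats in neurons, had 3.33, 6.32 and 8.57 CPM in TG and 4.10, 7.06 and 3.23 CPM in WT. Its log2 fold change of 0.34 (95% interval -0.50 to 1.17) became 0.00 without TG replicate 3 and 0.72 without WT replicate 2. Dnajc12, a partner of aromatic amino acid hydroxylases, had 3.33, 6.55 and 4.61 CPM in TG and 3.83, 4.98 and 4.29 CPM in WT.

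Members best known from the testis were detected at low level. Dnajb3 had 1.83, 2.01 and 2.22 CPM in TG, against 1.56, 1.59 and 1.29 CPM in WT. The groups did not overlap, but these values rest on 186 counts in all, and the log2 fold change of 0.44 had a 95% interval of -0.10 to 0.99. Hspa2, an HSP70 needed for sperm meiosis, had 19.3, 21.0 and 20.1 CPM in TG and 15.8, 15.9 and 20.0 CPM in WT (log2 fold change 0.23, 95% interval -0.05 to 0.50) with overlap at WT replicate 3. Of the 5 testis members (these with Hspa1l, Hspa4l and Dnajb13), 4 had fold changes above 0 and 0 were called.

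Dnaja4 and Hspa12b shared their highest and lowest libraries with lists of other genes; both were named after their values were seen. Dnaja4, a J-protein described as a target of SREBP, the factor that governs sterol synthesis, had 120.3, 169 and 176 CPM in TG and 144, 204 and 156 CPM in WT. The sum of 18 sterol synthesis and uptake genes, a list added after seeing the data, was 5188, 6919 and 6680 CPM in TG and 5311, 10058 and 5886 CPM in WT. WT replicate 2 was the highest and TG replicate 1 the lowest library for both, and WT replicate 2 was highest for 18 of the 18 sterol genes. The sum of 4 theca markers had the same extremes, at 13722 CPM in TG replicate 1 and 17622 CPM in WT replicate 2. Cyp11a1 and Star made up most of that sum, at 13859 and 3463 CPM in WT replicate 2. Cyp17a1 and Insl3 went the other way: WT replicate 2 was their lowest library, at 294 and 5.59 CPM. Hspa12b, a distant HSP70 of endothelium, had 18.0, 13.7 and 20.2 CPM in TG and 19.5, 20.4 and 16.1 CPM in WT. The sum of 6 endothelial markers was 555, 434 and 571 CPM in TG and 591, 714 and 513 CPM in WT, with WT replicate 2 highest and TG replicate 2 lowest for both. The part of any of these lists in the values of Dnaja4 and Hspa12b was not tested.

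**Figure D5:**
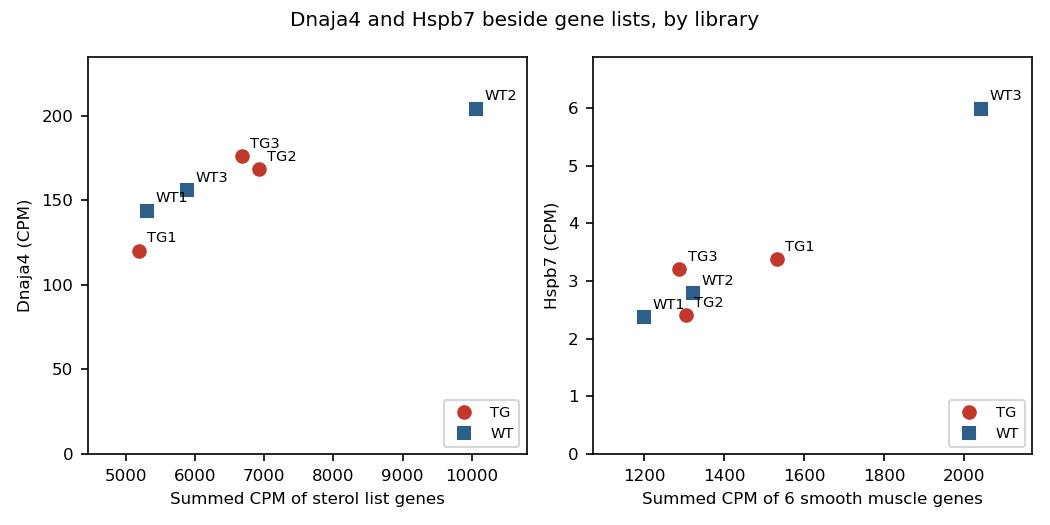
Level in CPM of Dnaja4 against the summed CPM of 18 sterol genes, and of Hspb7 against the summed CPM of 6 smooth muscle markers, 1 labelled point per ovary library (3 TG, 3 WT). WT replicate 2 is highest on both axes on the left, and WT replicate 3 on the right.

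Chaperone-related genes outside the family did not pass the test either. Of 101 genes in 5 lists, 99 were tested; 0 passed with any of the 3 tools. An unadjusted edgeR p under 0.05 was found for 1 gene, Cct8, a subunit of the cytosolic chaperonin, with 246, 280.2 and 235 CPM in TG and 232, 221 and 198 CPM in WT (log2 fold change 0.23, 95% interval 0.01 to 0.45). The 14 chaperonin and prefoldin genes had 13 fold changes above 0 with a median of 0.05. Over all 99 tested related genes the median of 0.03 became 0.0013 without TG replicate 2 and WT replicate 3 together. The 26 HSP70 and HSP90 co-chaperones had a median of 0.02, and Stip1, which links HSP70 to HSP90, had 291, 296 and 282 CPM in TG and 275, 280.1 and 301 CPM in WT. The 28 ER genes had a median of 0.04, ranging from -0.39 (Chac1) to 0.17. Chac1 was low, at 0.93 to 2.90 CPM over the libraries, with a 95% interval of -1.38 to 0.59. Ddit3 (CHOP), which marks prolonged ER stress, had 16.4, 15.4 and 16.2 CPM in TG and 18.6, 13.9 and 20.0 CPM in WT. The 15 mitochondrial proteostasis genes had a median of 0.02. The 16 tested genes of HSF1 control and heat induction outside the family had a median of -0.05, with 7 above 0 and 9 below. The named related genes were chosen after their values were seen.

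Across libraries, WT replicate 3 was the lowest for 26 of the 69 members (37.7%), beside 21.7% of all genes tested, and TG replicate 2 was the highest for 18 (26.1%), beside 18.6% of all genes. Elsewhere in the same ovaries the 6 interferon-response genes followed as a marker list had sums of 224 to 241 CPM in TG and 1061 to 1779 CPM in WT, and 6 of 6 were lower in TG by edgeR. The macrophage marker sum was 282 to 320 CPM in TG and 323 to 515 CPM in WT, with 0 of 8 called. The sum of 5 erythrocyte genes was 194 to 216 CPM in TG and 119 to 134 CPM in WT, without overlap, and 3 of the 5 were higher in TG by edgeR. The part of these lists in the chaperone values was not tested. The 8 immediate early genes, which respond to handling, had sums of 282 to 366 CPM in TG and 300.0 to 333 CPM in WT.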

How the data were processed

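The labels' protocols give total RNA from whole ovaries, sequenced on a BGISEQ-500. Tools listed without roles, per the submitters' processing notes, are DESeq2 1.4.5, RSEM 1.3.1 and Bowtie2, with the build mm10; aligner options, annotation, strandedness and batches are not given in the sources used here. The authors deposited 1 table with estimated counts and FPKM values per gene and library; that the second set is FPKM is per the file headers and its values. Between 8.50% and 9.13% of the estimated counts deposited per library were not whole (tolerance 1e-06). Genes that share reads with a near-identical copy, or overlap another gene, are uncertain.

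After rounding, the estimated counts of all genes were tested with edgeR 4.0.16 in R 4.3.3 (TMM, filterByExpr with its minimum of 10 counts, quasi-likelihood test, two-sided, Benjamini-Hochberg over 14124 genes, threshold 0.05). The script was checked on simulated data. CPM uses library totals of 17075484 to 18516171 counts, scaled by TMM; the common biological coefficient of variation was 12.5%. Alternatives used DESeq2 1.42.0 and limma 3.58.1 (voom on counts, trend on log2(FPKM + 1)). Standard deviations are over 3 animals.

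Named members were the 10 highest by FPKM, the 12 with the smallest p, the 6 with the widest spread, 15 with a textbook heat or ER stress role, and those nearest the count threshold. Members, lists and classes were chosen with earlier results of these data known. Promoter windows and gene coordinates are RefSeq's for GRCm38.p6, the assembly called mm10.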

Additional observations from a re-analysis of the deposited data

How the results depend on the processing

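No member and no gene of the related lists was called under any of the 16 other settings (other scaling, filters, tools, FPKM, libraries left out); the members' lowest adjusted p was 0.438 (Hspa1a without WT replicate 2), and 0 to 4 members had an unadjusted p under 0.05. Same-numbered TG and WT libraries correlated at 0.228, 0.0797 and 0.0935, each best with its own number, which does not establish pairing; with the replicate number as a block 0 members were called. Dnajb3 and Hspa1l were not tested at 50 counts in 3 libraries. Of 29 named members 15 kept the sign of their log2 fold change throughout and 14 did not; the cause was not tested. Leaving out TG replicate 2 and WT replicate 3 together turned Hsp90aa1 to -0.0766, Hspa9 to -0.0845, Hsf1 to 0.0345, Hspa1b to 0.0154, Hsf2 to -0.0960, Hspb2 to 0.0610, Dnajc12 to -0.15 and Hspb7 to 0.35. With single libraries left out the log2 fold change ranged from -0.0613 to 0.0100 for Hspa8, -0.0705 to 0.0125 for Hsp90ab1, -0.0458 to 0.13 for Hsp90aa1, -0.0330 to 0.0914 for Hspa9, -0.11 to 0.0809 for Dnaja1, -0.15 to 0.0629 for Hsph1, -0.0680 to 0.12 for Dnajb9, -0.00297 to 0.14 for Dnajc3, -0.10 to 0.0815 for Hsf1, -0.17 to 0.0612 for Hspa1b, -0.0379 to 0.0933 for Hsf2, -0.14 to 0.35 for Dnajc12 and -0.54 to 0.22 for Hspb7. Other named members kept their sign with single libraries left out but moved by over 1.5 times. These ranged from 0.0902 to 0.20 for Hsp90b1, 0.0343 to 0.18 for Hspa5, 0.0942 to 0.36 for Hspe1 and 0.0713 to 0.20 for Dnajc15. The ranges were -0.33 to -0.15 for Hspb1, -0.20 to -0.0354 for Dnajb1, 0.12 to 0.28 for Dnajb4 and 0.0951 to 0.23 for Dnajc9. They were -0.18 to -0.0642 for Dnajb2, 0.16 to 0.35 for Hspa2 and 0.0018 to 0.72 for Dnajc6. Hspd1 ranged from 0.18 without TG replicate 2 to 0.34 without TG replicate 1. Hspa1a ranged from -0.33 without WT replicate 2 to -0.16 without WT replicate 3. Over all the settings that tested it, Hspa1l ranged from 0.15 to 0.49. Hspb2, at -0.39 to -0.0137 with single libraries left out, changed sign only with both libraries left out. With 3 animals a group, the 95% intervals of 6 low members did not bound changes at 1.5-fold.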
